A study of Mus musculus with 8 samples.

Results

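Complement is a cascade of blood and tissue proteins that tags particles and cells for removal. The classical route starts when C1q, built from the chains encoded by C1qa, C1qb and C1qc, binds a target and switches on the proteases C1r and C1s. The cascade then converges on C3, ends in a membrane pore, and is held in check by inhibitors in fluid and on cell surfaces. In many tissues macrophages are a main source of C1q. The genes described here are 9 complement components and regulators, chosen by symbol: C1qa, C1qb, C1qc, C1s1, C3, C4b, Serping1, Cd55 and Cd59a. A gene counted as measured when a probe set of the Mouse Genome 430 2.0 array named it and no other gene. That left 7 of the 9 genes, with 12 probe sets, of 18194 genes in all. The array annotation used here gave C4b only together with another gene, and it paired C3 with no probe set, so neither was analysed here.

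The study profiled normal cochlea of CBA/CaJ mice, an inbred strain that keeps good hearing. All 8 arrays form 1 group, and each array stands for the pooled ears of 1 mouse, numbered 1 to 8 as a name only. Every mouse received a lethal dose of urethane and was perfused through the heart with saline to wash out blood cells. The tissue was the cochlear soft tissue freed from its outer bony shell, namely spiral ligament, organ of Corti and modiolus. Neither age nor sex is stated in the labels. The data therefore hold levels and differences between mice and no contrast of conditions. The spread between arrays includes that of the assay. In RNA from whole tissue, fewer cells of a type and less RNA per cell cannot be told apart.

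Values are MAS5 signals in arbitrary units, which do not compare as amounts of RNA between probe sets. A gene was read by its brightest probe set, with probe sets whose names end in _x_at (probes shared with other transcripts) used only where a gene had no other. It was called detected when it exceeded the background threshold on all 8 arrays. For each array the threshold was set so that 95% of 154 probe sets for odorant and vomeronasal receptors and for genes of unrelated organs fell below it, and it ranged from 59.6 to 80.0. Of all genes, 61.7% were detected (11232 of 18194). Log2 signals of any pair of arrays correlated at r = 0.945 to 0.960 across probe sets. Mouse 1 gave the highest value for 34.2% of detected genes, and mouse 5 exceeded the mean of the others by more than 2-fold in 82 genes (0.730%). The labelled tissue was checked by its markers: 13 of 13 spiral ligament and 12 of 13 neuronal genes were detected, and 5 of 10 measured hair cell genes.

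All 7 measured complement genes were detected, beside 61.7% of all genes. The C1q chains, the protease gene C1s1, the inhibitor gene Serping1 and the cell surface inhibitors Cd55 and Cd59a were each above background in every mouse. Of the 12 probe sets, 11 were above the threshold on all arrays, and the remaining one, for Cd55, on 3 of 8.

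**Figure D1:**
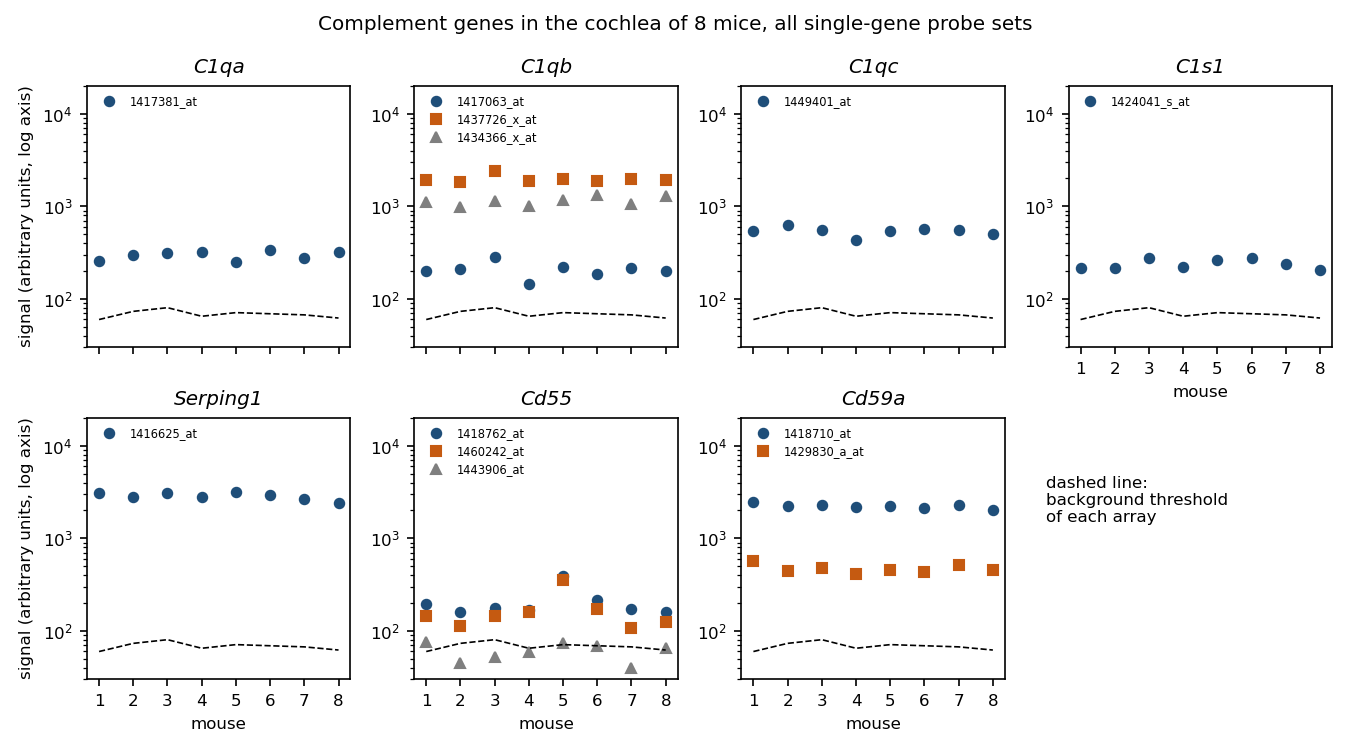
Signal (arbitrary units, log axis) of every single-gene probe set of the 7 measured complement genes in each of the 8 mice, 1 point per mouse, with the background threshold of each array as a dashed line. Cd55 stands out in mouse 5, at 394.6 and 355.2 on its 2 detected probe sets, while the other genes vary by less than 2-fold between mice.

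C1qa, C1qb and C1qc lie next to each other on mouse chromosome 4 (GRCm38.p6). The 250 bases before the RefSeq start sites of C1qb and C1qc are shown because each holds 1 copy of AGGAAGT, the core motif of PU.1, a transcription factor of macrophages. RefSeq windows were available for 6 of the 9 genes (C1qb, C1qc, C1s1, C3, Cd55 and Cd59a). Capitals mark the motif, which reads on the opposite strand in both windows, at bases 53 to 47 before the start of C1qb and 195 to 189 before that of C1qc.
C1qb, chr4:136886201-136886450, minus strand: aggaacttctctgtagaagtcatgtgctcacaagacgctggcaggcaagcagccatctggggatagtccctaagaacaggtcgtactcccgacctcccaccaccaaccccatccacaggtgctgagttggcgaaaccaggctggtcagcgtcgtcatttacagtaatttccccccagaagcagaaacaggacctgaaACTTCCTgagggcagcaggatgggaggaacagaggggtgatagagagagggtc
C1qc, chr4:136892915-136893164, minus strand: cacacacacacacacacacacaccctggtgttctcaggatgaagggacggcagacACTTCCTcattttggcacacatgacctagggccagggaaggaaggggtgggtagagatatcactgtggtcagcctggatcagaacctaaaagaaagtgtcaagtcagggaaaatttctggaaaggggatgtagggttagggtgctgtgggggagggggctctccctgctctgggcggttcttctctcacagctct
This motif, searched on both strands, occurred in 7.69% of 32851 promoter windows of the same length. The windows of C1s1, C3, Cd55 and Cd59a held none. The interferon-stimulated response element, spelled as GAAA, any 2 bases and GAAA, occurred in the window of Cd59a, at bases 187 to 178 before its start, as in 2.98% of all windows. The C/EBP motif TTGCNNAA occurred in the windows of C3 and of 1 of the 2 starts of C1s1, as in 9.56% of all. No window held the STAT motif TTCNNNGAA, which 7.02% of all windows did. These matches describe the letters of the windows.

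The 3 chains of C1q are needed together for the protein. The highest mouse exceeded the lowest by 1.35-fold for C1qa, 1.44-fold for C1qc and 1.95-fold for C1qb. C1qa measured 255.7, 295.0, 316.1, 319.7, 248.3, 335.4, 275.6 and 320.8 in mice 1 to 8, a mean of 295.8 ± 32.6 (SD, n = 8). Mouse 6 was the highest and mouse 5 the lowest. C1qc measured 544.6, 623.1, 552.3, 431.9, 546.3, 567.5, 553.6 and 499.1, a mean of 539.8 ± 55.3 (SD, n = 8). Its highest and lowest mice were 2 and 4, and without mouse 4 its SD on the log2 scale was 0.09 in place of 0.15.

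C1qb was the least certain of the chains, because its probe sets did not give the same picture. Its probe set 1417063_at measured 198.9, 210.1, 281.0, 144.1, 220.1, 185.7, 213.9 and 197.5 (206 ± 38.3, SD, n = 8), highest in mouse 3 and lowest in mouse 4. The _x_at probe set 1437726_x_at read 1963 ± 179 and ranged from 1813.9 to 2390.9, again highest in mouse 3. The _x_at probe set 1434366_x_at read 1133 ± 124 and ranged from 973.0 to 1327.8, highest in mouse 6. The first and second correlated at r = 0.72 over the 8 mice (exact permutation p = 0.0920; rho = 0.71, exact p = 0.0576), and at r = 0.65 without mice 2 and 3. The third correlated with the first at r = 0.08 (exact permutation p = 0.871; rho = -0.05; r = 0.35 without mice 2 and 6) and with the second at r = 0.06 (exact permutation p = 0.885; rho = 0.14; r = -0.47 without mice 2 and 3). These p-values are unadjusted, over 7 pairs of probe sets of the described genes. The SD of C1qb on the log2 scale was 0.27 on its first probe set and 0.12 on the brightest _x_at probe set.

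No pair of the chains passed the correlation test across the 8 mice. C1qb and C1qc had r = 0.64 (rho = 0.36), with an exact permutation p = 0.0979 and an adjusted p = 0.716. Without mice 3 and 4, the farthest from the median of C1qb, r was 0.18. The value rested on mouse 4: r was 0.05 without it and 0.79 without mouse 3. With all probe sets of a gene averaged r was 0.10. C1qa had r = -0.23 with C1qb (rho = -0.62, exact permutation p = 0.593 and 0.115) and r = -0.26 with C1qc (rho = -0.02, exact permutation p = 0.566 and 0.977). Without mice 1 and 5 these r values were -0.26 and -0.34. The r of C1qa with C1qb was -0.04 with arrays scaled to equal medians and 0.20 with probe sets averaged.

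Complement C1s, encoded by C1s1, is the protease that cleaves C4 and C2 once C1 is activated. Its gene lies between C1ra and C1rb. It measured 216.6, 213.4, 273.6, 221.0, 263.3, 273.2, 235.7 and 207.1 in mice 1 to 8 (238 ± 27.9, SD, n = 8). Mice 3, 5 and 6 were the highest, at 263.3 or more, and the other 5 read at most 235.7. Its only probe set, 1424041_s_at, is of a kind that matches several transcripts, so a share from the closely related C1s2 cannot be told apart. The partner protease gene C1ra read 159 ± 18.3, and C2, the protease cleaved by C1s, read 999 ± 85.7 (SD, n = 8).

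The mice with high C1s1 also had the highest summed signals of bone, macrophage and neutrophil genes. Summed over 10 measured bone genes, mice 3, 5 and 6 read 12037, 11948 and 12503, and the other mice 5790 to 7889. All 8 detected bone genes correlated positively with C1s1 (median r = 0.84), and 6 of the 8 had an unadjusted exact permutation p under 0.05, beside 4.55% of all genes tested against C1s1. No bone gene passed the adjusted test (smallest adjusted p = 0.614, exact permutation test). For macrophage genes the sums were 17291, 18247 and 16987 in mice 3, 5 and 6 and at most 15852 in the others, and for neutrophil genes 30246, 20969 and 27723 against at most 18767. Of 19 detected macrophage genes 17 correlated positively with C1s1, 7 of them with an unadjusted exact permutation p under 0.05. Their r ran from -0.23 for Ctss to 0.87 for Fcer1g, with Csf1r at 0.01. Lyz2 read 4049.7, 5129.4 and 3283.7 in mice 3, 5 and 6 and at most 2985.8 elsewhere. Pf4 read 1343.8, 1237.9 and 1638.2 there and at most 904.9 elsewhere. Ctss and Csf1r were instead highest in mouse 1, at 4461.7 and 1955.8. All 5 detected neutrophil genes correlated positively (median r = 0.38), none with an unadjusted exact permutation p under 0.05. Of 12 detected neuronal genes 2 correlated positively (median r = -0.64), and 5 of the 12 had such a p. The summed neuronal signal was lowest in mouse 6, at 16789, and highest in mouse 1, at 39420. Defining bone markers were not at 0: 8 of 10 were above background on all arrays, the brightest being Dmp1, a protein of osteocytes (3419 ± 711), and Col1a1, a chain of type I collagen (1483 ± 1158), and Acp5 and Mmp13 on 6 and 3. The neutrophil receptor gene Cxcr2 was above background on no array. The part of bone, macrophages, neutrophils or neurons in the C1s1 values was not tested.

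Serping1 encodes the C1 inhibitor, a serpin that blocks C1r and C1s. It measured 3088.5, 2814.7, 3113.8, 2779.2, 3193.9, 2975.3, 2640.7 and 2432.5 in mice 1 to 8 (2880 ± 261, SD, n = 8). Mouse 5 was the highest and mouse 8 the lowest, at a ratio of 1.31, and no mouse stood apart. The gene whose pattern was most like it was Col1a2, a chain of type I collagen, with r = 0.96 and rho = 0.95 over 8 mice (exact permutation p = 0.000198, adjusted p = 0.614). Without mice 5 and 8 r was 0.92. Col1a2 read 2874.2, 2450.4, 3089.3, 2632.6, 3883.3, 3042.0, 2099.5 and 1737.0 in the same mice. Next by the same measure were Atpaf2 (r = 0.94, rho = 0.95) and Ccdc88c (r = 0.95, rho = 0.93).

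Of 11 detected genes of fibroblasts and mesenchyme, 9 correlated positively with Serping1 (median r = 0.66). For 5 of them the unadjusted exact permutation p was under 0.05, beside 5.31% of all genes tested against Serping1. None passed after adjustment (smallest adjusted p = 0.614, exact permutation test). Col1a2 is itself in this list. The summed signal of the 13 measured genes of this list ranged from 18772 in mouse 8 to 23594 in mouse 1, and each of the 13 was above background on at least 1 array. Positive r with Serping1 was not confined to this list. Of 8 detected bone genes 7 were positive (median r = 0.59), and of 19 macrophage genes 18 (median r = 0.46). Of 12 neuronal genes 2 were positive (median r = -0.03). The part of fibroblasts, mesenchyme or other cells in the Serping1 values was not tested.

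Cd55 encodes decay-accelerating factor, a membrane protein that breaks up the convertases, the enzymes that cleave C3. Its brightest probe set, 1418762_at, measured 193.1, 159.8, 178.2, 168.7, 394.6, 215.6, 171.8 and 159.1 in mice 1 to 8 (205 ± 78.8, SD, n = 8). Mouse 5 alone was high, 2.22 times the mean of the other 7 (178 ± 20.2, SD, n = 7). A separate probe set, 1460242_at, measured 143.7, 112.7, 146.0, 159.9, 355.2, 173.2, 108.4 and 123.4, again with mouse 5 high, at 2.57 times the mean of the others (138 ± 24.3, SD, n = 7). The third, 1443906_at, read 40.0 to 75.5, close to background, with mouse 5 at 74.0.

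The 2 detected Cd55 probe sets correlated at r = 0.95 over the 8 mice (rho = 0.69), with an exact permutation p = 0.00424 and an adjusted p = 0.0615. That adjustment ran over 4337 genes with 2 detected probe sets, of which 4.4% passed. With arrays scaled to equal medians of detected genes the adjusted p was 0.0364. The agreement leaned on mouse 5: without mice 5 and 6, the farthest from the median, r was 0.47, and without mouse 5 alone it was 0.70. The ratio that places a mouse apart, its gap to the nearest value over the whole range (Dixon's ratio), was 0.665 and 0.605 for these probe sets, above the critical value of 0.526. Among all detected genes 12.7% had a mouse apart by this measure in either direction, and 5.77% had it as the highest value. Most of these 1427 genes had mouse 1 apart, 470 as the highest and 529 as the lowest. Mouse 5 was apart as the highest in 87. Of the 7 complement genes, each read by its main probe set, Cd55 was the only one with a mouse apart.

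Mouse 5 also carried high signals of genes typical of other tissues. Lists of adipocyte, skeletal muscle, motile cilia and airway mucosa genes were drawn up after these values were seen. They were highest in mouse 5 for 16 of 16, 14 of 17, 17 of 19 and 10 of 11 measured genes. Of all detected genes 8.16% were highest in mouse 5. Because the lists followed the values, these counts and the sums below are descriptions and test nothing. In the same order, 7, 2, 5 and 1 of the listed genes were detected. The adipocyte genes summed to 15752 in mouse 5, with a range of 1629 to 3497 over the remaining mice. For skeletal muscle it was 12317 against 578 to 1803, for motile cilia 12624 against 1596 to 1736, and for airway mucosa 20235 against 1332 to 7748.

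The defining adipocyte genes Adipoq and Fabp4 read 1025.8 and 5517.4 in mouse 5, and at most 234 and 914 elsewhere. Retn, Lep, Myh7, Ckm, Spag6, Muc4, Bpifb1 and Krt14 were above background on no array. The part of these tissues in the Cd55 value was not tested. C1qa was lowest in mouse 5 and Cd59a lay near its mean there, at a log2 deviation of -0.24 and -0.01. Serping1, which was highest in mouse 5, C1s1, C1qb and C1qc deviated there by 0.15, 0.15, 0.11 and 0.02. The summed macrophage signal of mouse 5 was 18247, with 13367 to 17291 in the other mice.

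**Figure D2:**
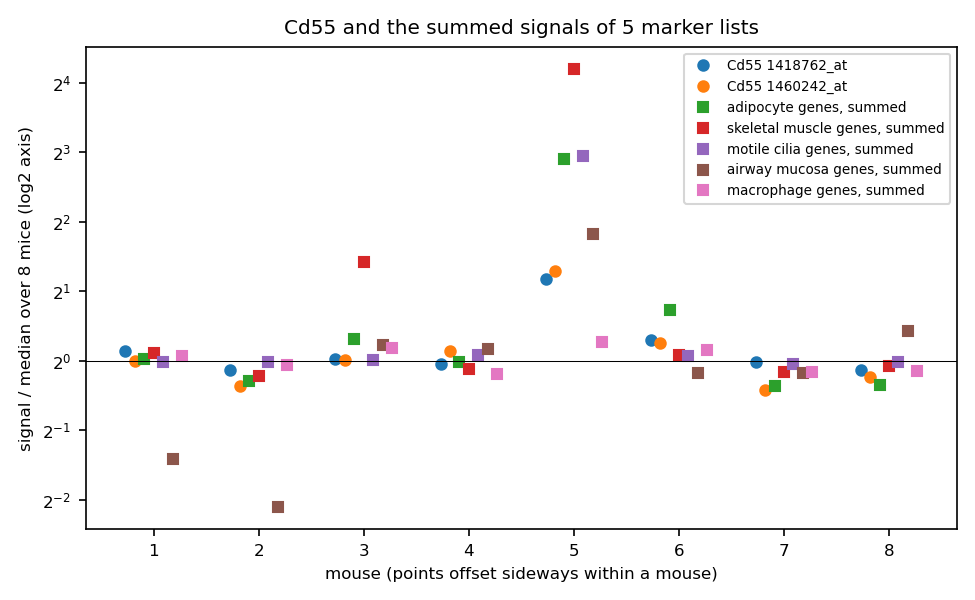
Signal relative to the median over 8 mice (log2 axis) for the 2 detected Cd55 probe sets (circles) and the summed signals of 5 marker lists (squares), with 1 point per mouse. In mouse 5 Cd55 and the adipocyte, skeletal muscle, motile cilia and airway mucosa sums are above all other mice, and the macrophage sum is 18247 against 13367 to 17291 elsewhere.

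The genes most like Cd55 over the 8 mice were Lpl, a lipase abundant in adipose tissue and muscle, Slc2a4, the insulin-responsive glucose transporter, and Pygm, the muscle glycogen phosphorylase. Lpl had r = 0.97 (rho = 0.95) and read 2242.6 in mouse 5 and 354.4 to 623.9 in the others. Slc2a4 had r = 0.97 (rho = 0.90) and Pygm r = 0.88 (rho = 0.93). Without mouse 5 alone these r values fell to 0.69, 0.86 and 0.72, and without mice 5 and 6 they were 0.85, 0.89 and 0.98. None passed after adjustment (adjusted p = 0.614 for each, exact permutation test).

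Cd59a encodes a membrane inhibitor that stops the pore from forming, and on its brighter probe set it had the smallest spread of the 7 genes. It measured 2488.3, 2258.5, 2318.9, 2193.5, 2217.9, 2115.6, 2263.2 and 2022.8 in mice 1 to 8 (2235 ± 138, SD, n = 8). Mouse 1 was the highest and mouse 8 the lowest, at a ratio of 1.23. Its other probe set, 1429830_a_at, read 469 ± 53.1 and was also highest in mouse 1, at 573.2. Its SD on the log2 scale was 0.16 there and 0.09 on the brighter probe set. The probe sets correlated at r = 0.72 (rho = 0.76, exact permutation p = 0.0452 and 0.0368), with an adjusted p = 0.194 for r, and at r = 0.63 without mice 1 and 8. This value leaned on mouse 1: r was 0.39 without mouse 1 alone and 0.86 without mouse 8 alone. The genes most like Cd59a were Tbcc (r = 0.98, rho = 0.98), Il34, a ligand of the macrophage growth factor receptor (r = 0.96, rho = 0.98), and Cep57 (r = 0.96, rho = 0.95). None passed after adjustment (adjusted p = 0.614 for each, exact permutation test). With arrays scaled to equal medians r was 0.85 for Tbcc and 0.86 for Il34. Cep57 has 2 probe sets of nearly equal mean signal. The one read with all mice (372.4) had r = 0.92 to 0.99 without each mouse in turn, and the other (371.5) had r = 0.30 over the 8 mice. Leaving out mouse 1, 3, 5 or 7 made the other the brighter, which gave r = 0.15 to 0.37. Scaling to equal medians did the same and gave r = 0.24.

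**Figure D3:**
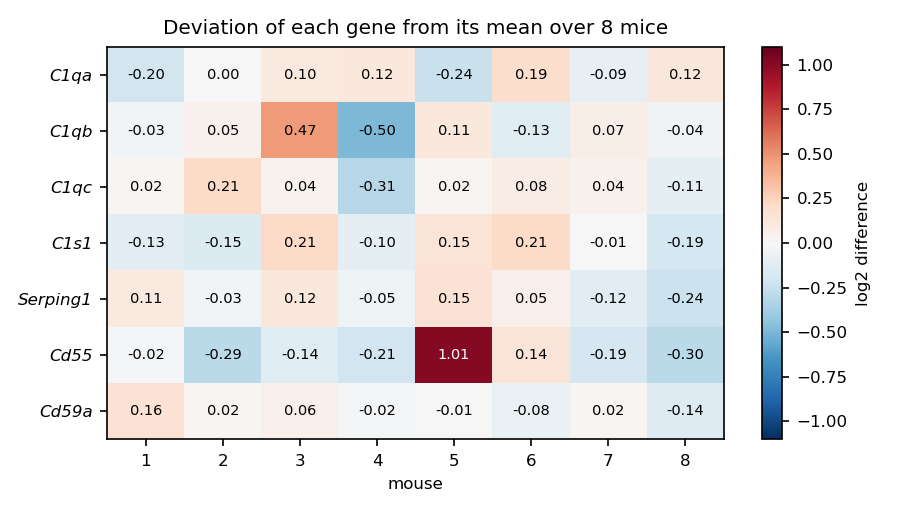
Deviation of each of the 7 genes from its own mean over the 8 mice, as a log2 difference printed in each cell and shown by colour. Cd55 in mouse 5 is the largest value, at 1.01, and C1qb in mouse 4 the lowest, at -0.50.

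Set beside all detected genes, the spread of the complement genes was ordinary. Their median SD on the log2 scale was 0.16, and that of all 11232 detected genes was 0.18. By gene the SD was 0.16 for C1qa, 0.27 for C1qb, 0.15 for C1qc, 0.17 for C1s1, 0.13 for Serping1, 0.43 for Cd55 and 0.09 for Cd59a. Each was also set beside detected genes in the same twentieth of mean signal. Cd55 exceeded 90.7% of such genes, and 0.16 was its SD without mouse 5. C1qa, C1qc, C1s1 and Cd59a exceeded 23.4%, 28.6%, 21.2% and 20.9%, C1qb 56.3% and Serping1 50.4%. The 19 detected macrophage genes had a median SD of 0.29. The brightest of them were Ctss (3554 ± 408), Lyz2 (3277 ± 897), Cd74 (1409 ± 276) and Csf1r (1335 ± 288; SD, n = 8). Among the rest Pf4 ranged from 241 to 1638 and Ptprc from 75.7 to 280.2.

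**Figure D4:**
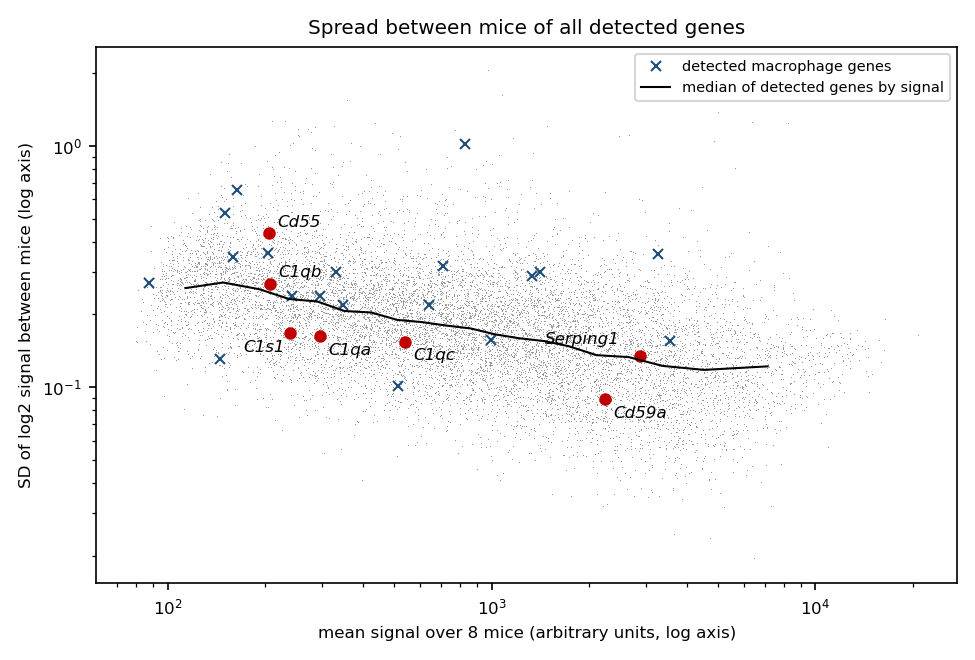
SD of log2 signal between the 8 mice against mean signal (both axes log) for all 11232 detected genes (grey), the 7 complement genes (red circles) and 19 macrophage genes (blue crosses), with the median in each twentieth of signal as a line. Cd55 lies above the line at 0.43, and C1qa, C1qc, C1s1 and Cd59a lie below it.

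No pair of the complement genes passed the correlation test, and neither did any pair of a complement gene with another gene. Each of the 7 was tested against every other detected gene with all 40320 orders of the mice, 78596 pairs in all. After adjustment 0% passed (smallest adjusted p = 0.614 for r and 0.888 for rho, exact permutation test). The smallest p that 8 mice allow is 2.48e-05, so at least 39 pairs would have to reach it before any could pass, and a pair that does not pass may still vary together. At an unadjusted p under 0.05 there were 6021 pairs (7.66%), from 194 genes with C1qb to 2093 with Cd59a. Among the 21 pairs within the set, r ranged from -0.60 (C1qa with Cd59a) to 0.64 (C1s1 with Serping1), with 16 above 0. Serping1 and Cd55 had r = 0.63 and the largest rho, 0.81 (exact permutation p = 0.0876 and 0.0218, adjusted p = 0.706 and 0.888), and r was 0.54 without mice 5 and 8. Cd55 and Cd59a had r = 0.03 and rho = 0.26 (exact permutation p = 0.919 and 0.536), and r = 0.86 without mice 5 and 6.

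Against the 19 detected macrophage genes the complement genes differed in how many correlations were positive. C1qb was positive with 19 of 19 (median r = 0.29), C1qc with 17 (median r = 0.27) and C1qa with 8 (median r = -0.11). The C1qb count rests on probe set 1417063_at alone, and its _x_at probe sets, which gave another picture, were not set against these genes. C1s1 was positive with 17 (median r = 0.49), Serping1 with 18 (median r = 0.46), Cd55 with 18 (median r = 0.39) and Cd59a with 10 (median r = 0.03). Over all genes tested the share of positive r was 51.2% for C1qb, 57.3% for C1qc and 40.9% for C1qa. It was 46.4% for C1s1, 54.4% for Serping1, 49.1% for Cd55 and 59.1% for Cd59a. At an unadjusted exact permutation p under 0.05 there were 7 of the 19 macrophage genes with C1s1, 5 with Serping1, 2 with Cd59a, 1 each with C1qc and Cd55, and 0 with C1qa and C1qb. Over all genes tested the share at such a p was 4.55% for C1s1, 5.31% for Serping1 and 18.6% for Cd59a. For C1qc, Cd55, C1qa and C1qb it was 4.43%, 3.14%, 15.8% and 1.73%. No pair passed after adjustment. By r the strongest macrophage gene with C1qc was Ms4a7 (r = 0.78, rho = 0.48), whereas C1qa had r = -0.64 with it (rho = -0.76). Ms4a7 and C1qc were both lowest in mouse 4. These counts are descriptions, since genes of 1 cell type share their mice and arrays. The gene most like C1qc among all was Cebpb, a C/EBP transcription factor (r = 0.96, rho = 0.95, exact permutation p = 9.92e-05, adjusted p = 0.614). Its signal ran from 146.9 in mouse 4 to 324.5 in mouse 2, the mice with the lowest and highest C1qc. Man1c1 (r = 0.91) and Klhl26 (r = 0.90) followed for C1qc. The genes most like C1qa were Pcdh18, Slc2a13 and Klhl24 (r = 0.95, 0.94 and 0.90), and those most like C1s1 were Gmnn, Ranbp9 and Ms4a4d (r = 0.92, 0.94 and 0.89). For C1qb they were Bag2, Foxj3 and an unnamed Riken gene (r = 0.94 for each). With probe sets averaged, r was 0.33 for C1s1 with Ranbp9, 0.51 for C1qb with Bag2 and 0.62 for C1qb with the Riken gene. All had the same adjusted p = 0.614 (exact permutation test).

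For the rest of the cascade, 58 genes were listed by step, including the 9 above, and 47 were measured. Of these 20 were detected (42.6%), beside 61.7% of all genes, 19 were above background on no array and 8 on some. The 20 include the 7 genes described above. The counts by step that follow stand beside the same 61.7%. The classical route was detected for 6 of 6 measured genes, namely the C1q chains, C1ra, C1s1 and C2. In the lectin route, which starts from sugar-binding proteins, 2 of 9 were detected, the protease gene Masp1 (284 ± 40.7) and the scavenger receptor gene Colec12 (1194 ± 218). Mbl1, Mbl2, Colec10 and Colec11 were above background on no array. Of the alternative route, Cfp, encoding properdin, was detected (139 ± 29.8), whereas Cfb exceeded background in mouse 2 only (49.0 ± 14.4).

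None of the 6 measured genes of the terminal pathway was detected. Hc (which encodes C5), C6, C8a, C8b and C9 were above background on no array, with mean signals from 4.38 to 30.7. C8g exceeded it on 7 of 8 (98.9 ± 19.8). A signal under background does not show that a transcript was absent, since probe sets differ in sensitivity.

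Of the regulators in fluid, 4 of 7 measured genes were detected, and of those on membranes 4 of 8. Clu, encoding clusterin, a secreted chaperone that also blocks the pore, read 11956 ± 1228. Other detected fluid-phase genes beside Serping1 were Vtn, encoding vitronectin (595 ± 154), and Cfi, the protease that cleaves C3b (173 ± 25.3). On membranes, Cr1l, the rodent inhibitor known as Crry, read 1828 ± 160 and Susd4 577 ± 89.1. The Cd55 and Cd59a neighbours Cd55b and Cd59b are close copies. Cd55b was above background on no array and Cd59b was not analysed here. Of the receptors 3 of 9 were detected, namely C5ar1 (512 ± 150), Cd93 (815 ± 67.0) and C1qbp, a mitochondrial protein named for binding C1q (2710.0 ± 176). C3ar1 exceeded background on 7 of 8 arrays, and Itgam, Itgax, Cr2 and Vsig4 on none (all SD, n = 8).

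**Figure D5:**
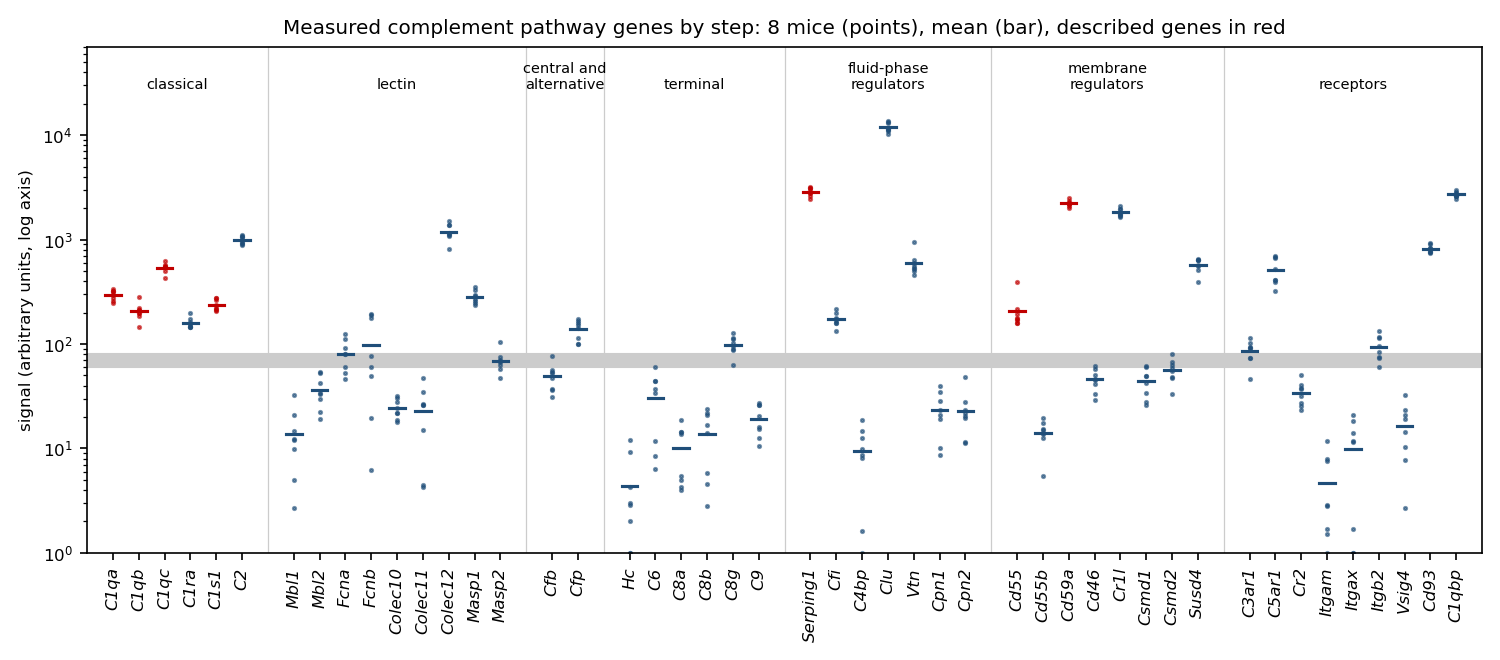
Signal (arbitrary units, log axis) of the 47 measured complement pathway genes by step, with 8 mice as points, their mean as a bar, the 7 genes described in depth in red, and the range of background thresholds (59.6 to 80.0) as a grey band. Points under 1 are drawn at 1. All 6 classical genes lie above the band and 5 of the 6 terminal genes exceed the threshold on no array.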

How the data were processed

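The deposited table holds a linear signal intensity for each probe set. The submitters' processing notes name MAS5 without a version. RNA was amplified and biotin-labelled as cDNA per the labels' protocols. The authors scaled the arrays alike: the mean intensity without the lowest and highest 2% was 500.002 on every array. The table held 0 other sample columns, and no array was left out.

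Probe sets were named by the platform annotation: 34958 of 45101 named 1 gene, 932 several and 9211 none. By Entrez identifier 34754 matched current RefSeq symbols, with 0 changed symbols, as did all 12 probe sets described. Signals under 1 were set to 1 before log2. Of 126 background genes, 2 were detected.

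Correlations over mice used exact two-sided permutation tests (all 40320 orders), adjusted by Benjamini-Hochberg over all pairs or genes tested; 0.05 was the threshold. The tests were checked on simulated data. For correlations with other genes, 1 simulated gene was set against all detected genes, fewer pairs than the 78596 adjusted here. That check therefore does not show what the larger adjustment can detect. Each p-value is the share of orders that gave a correlation at least as strong in either direction. It covers these 8 arrays only and does not measure the spread between them. The genes named besides the 9 were those of the pathway lists, the 3 detected genes with the highest smaller of r and rho for each gene, and genes of marker lists. Members and lists were chosen with earlier results of these data known. Marker genes singled out by value (Adipoq, Fabp4, Acp5, Mmp13, Pf4, Ptprc, Ms4a7, Lyz2, Ctss, Csf1r, Fcer1g) were picked with their values in view. The software was scipy 1.17.1, numpy 2.4.6 and pandas 2.3.3 under Python 3.11.15, with matplotlib 3.10.9 for figures. Alternatives were other normalizations, a pseudocount of 32, other probe set and detection rules, and leaving out each mouse.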

Additional observations from a re-analysis of the deposited data

Results flagged for a closer look

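Of 24 probe sets above background on all arrays, for the described genes and the other detected pathway genes, 5 had 1 mouse apart from the other 7 by Dixon's ratio. Chance flags about 1 in 20 groups, and 12.7% of all detected genes were flagged. Most of those genes were flagged for mouse 1, 470 as the highest and 529 as the lowest. The Cd55 probe sets 1418762_at (ratio 0.665) and 1460242_at (ratio 0.605) were flagged for mouse 5, at 394.6 and 355.2 against at most 215.6 and 173.2 in the others. The C1qb probe set 1437726_x_at (ratio 0.706) was flagged for mouse 3, which read 2390.9 against at most 1967.5. Vtn (ratio 0.544) was flagged for mouse 1, which read 951.2 against at most 641.2. Susd4 (ratio 0.540) was flagged for mouse 6, which read 393.4 against at least 515.9.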

How the results depend on the processing

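All 7 measured genes stayed detected under every alternative run: quantile normalization, equal medians, averaged probe sets, a 99th percentile, at least 4 of 8 arrays, and without each mouse. Their median SD was 0.15 to 0.18 (0.16 to 0.17 without each mouse). The number of pairs passing the correlation test was 0 under every alternative run (a pseudocount of 32, averaged probe sets, both other normalizations, and without each mouse), which shows no stability, since at least 39 pairs at the smallest possible p were needed with 8 mice. The count of genes whose probe sets agreed, 191, became 110 with no detection filter, 384 with _x_at probe sets allowed (chosen after seeing the data), and 0 without any 1 mouse, where fewer orders exist. The Cd55 agreement passed with equal medians only (r = 0.95, adjusted p = 0.0364), and ranged from an adjusted p of 0.0505 to 0.279 under the others (exact permutation test). With probe sets averaged, r of C1qa with C1qb turned from -0.23 to 0.20. Mean signals moved with the probe set read, to 1963 (brightest _x_at) or 1101 (averaged) for C1qb and to 1352 (averaged) for Cd59a. No paired analysis was possible because there is 1 group. With 8 arrays the precision is limited by their number, and signals near background have no order.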
